A study of Homo sapiens with 4 samples.

Results

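The splicing factor genes described here are the core protein-coding genes of pre-mRNA splicing and its regulation, compared between imatinib-sensitive and imatinib-resistant leukaemia cells. They were chosen by symbol alone, as the protein-coding genes of the SRSF, HNRNP, SF3A and SF3B, SNRP (SNRPN left out) and PRPF families together with U2AF1, U2AF2, ZRSR2, TRA2A, TRA2B, RBM39, PTBP1, PTBP2 and PTBP3. By this rule 76 of the 32673 genes in the table were members, namely 12 SRSF, 22 HNRNP, 9 SF3A or SF3B, 11 SNRP, 13 PRPF and 9 single genes. The rule uses no measured value, but it was written with earlier results of these data known.

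TF1 is a human erythroleukaemia cell line that grows on the cytokine GM-CSF. TF1-BA cells are TF1 cells transduced with the p210 form of BCR-ABL, the fusion kinase of chronic myeloid leukaemia, and respond to the kinase inhibitor imatinib. TF1-BAR cells also carry BCR-ABL, are resistant to imatinib and, per the labels, were kept in 2 uM imatinib. Both lines grew with 10% serum and, per the labels, 2 ng/ml GM-CSF (the paper's methods state another dose), and total RNA of 10000000 cells per replicate was sequenced in 2 libraries per line. Each line is a single culture history, and the titles of the resistant libraries carry the word VECTOR, which the labels do not explain. Resistance, drug exposure and any vector therefore cannot be told apart, and the labels do not say whether the replicates were separate cultures, so that the p-values measure only the spread between these libraries. The libraries held 15465497 to 18042299 fragments, the replicates of a line correlated at 0.983 (TF1-BA) and 0.979 (TF1-BAR) over the genes tested and the lines at 0.946 to 0.956. All 11 markers of TF1 cells were at 1 FPKM or more in every library, and their summed level was 520 to 526 FPKM in TF1-BA and 601 to 636 FPKM in TF1-BAR cells. Of 11 measured markers of T, B, fibroblast and epithelial cells, 8 were under 0.5 FPKM throughout, and the list summed to 22.99 to 24.95 FPKM in TF1-BA and 10.8 to 11.4 FPKM in TF1-BAR cells. The exceptions included CD3D (19.2 and 20.7 against 5.74 and 6.36 FPKM) and CD79A. Their part in the results below was not tested.

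Splicing removes introns in the spliceosome, which is assembled on each intron from the U1, U2, U4/U6 and U5 small nuclear ribonucleoprotein particles (snRNPs). SR proteins bind mainly exons and promote the use of nearby splice sites, whereas many heterogeneous nuclear ribonucleoproteins (hnRNPs) bind elsewhere and often counteract them, so that the balance of these proteins sets much of alternative splicing. In myeloid neoplasms, recurrent mutations fall in SF3B1, SRSF2, U2AF1 and ZRSR2. Trimethylated lysine 36 of histone H3, the mark written by SETD2 that the study is concerned with, is read by adaptor proteins that recruit PTBP1 and other splicing factors.

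The promoters of the members that differed most between the lines are shown first, to place these genes in the genome. RefSeq (GRCh38.p14) gave the 250 bases before a transcription start for 66 of the 76 members, and members without an entry used here include HNRNPA1, PRPF3, PRPF39, PRPF4B, RBM39, SF3B3, SNRPD1, SRSF2 and TRA2A. Each window was read on both strands for CCGGAAG, the core word bound by ETS factors, and for CACGTG, the E-box bound by the MYC family. The words do not overlap each other. Below are the windows of HNRNPLL and PRPF6, which were higher in TF1-BAR cells, and of HNRNPF and SNRPA, which were lower, 5′ to 3′ on the strand of the gene, with CCGGAAG or its reverse complement CTTCCGG in capitals.
HNRNPLL, chr2:38602929-38603178, minus strand: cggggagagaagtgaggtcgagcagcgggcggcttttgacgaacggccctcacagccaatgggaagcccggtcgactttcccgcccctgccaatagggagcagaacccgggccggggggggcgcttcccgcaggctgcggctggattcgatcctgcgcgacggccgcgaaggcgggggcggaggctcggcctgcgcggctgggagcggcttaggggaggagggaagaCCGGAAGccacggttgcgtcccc
PRPF6, chr20:63980882-63981131, plus strand: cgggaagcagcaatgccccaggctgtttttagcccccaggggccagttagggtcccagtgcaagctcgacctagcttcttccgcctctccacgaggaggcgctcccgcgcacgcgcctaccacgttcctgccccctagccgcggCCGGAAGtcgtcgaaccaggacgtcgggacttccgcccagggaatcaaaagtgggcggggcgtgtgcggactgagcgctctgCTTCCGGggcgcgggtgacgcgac
HNRNPF, distal start, chr10:43408858-43409107, minus strand: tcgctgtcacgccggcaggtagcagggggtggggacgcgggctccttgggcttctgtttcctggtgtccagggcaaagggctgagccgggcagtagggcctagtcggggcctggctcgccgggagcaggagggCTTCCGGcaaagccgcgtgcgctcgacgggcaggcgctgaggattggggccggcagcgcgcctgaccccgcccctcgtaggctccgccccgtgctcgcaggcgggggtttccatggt
HNRNPF, proximal start, chr10:43397278-43397527, minus strand: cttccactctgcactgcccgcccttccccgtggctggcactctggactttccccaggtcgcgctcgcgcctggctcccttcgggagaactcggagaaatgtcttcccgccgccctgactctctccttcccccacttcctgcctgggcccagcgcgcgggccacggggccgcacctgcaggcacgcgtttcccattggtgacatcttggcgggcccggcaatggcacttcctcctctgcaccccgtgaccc
SNRPA, chr19:40750953-40751202, plus strand: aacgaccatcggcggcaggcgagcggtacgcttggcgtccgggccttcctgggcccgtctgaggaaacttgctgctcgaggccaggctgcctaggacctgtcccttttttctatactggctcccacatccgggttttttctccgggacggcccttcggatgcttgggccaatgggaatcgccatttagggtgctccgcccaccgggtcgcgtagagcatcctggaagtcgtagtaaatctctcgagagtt
The windows of HNRNPLL and SNRPA and those of HNRNPF lie inside the longest gene span of the table's annotation, so that other starts further upstream are possible, whereas that of PRPF6 ends just before its gene. CCGGAAG stood in 21 of the 66 members (31.8%), against 2795 of 27305 genes with an entry (10.2%). That background holds every gene with an entry, of any type and any level of expression. It was not matched to the members, which are protein-coding and mostly highly expressed, so the difference cannot be read as particular to splicing factors. Each class had members with it, but most of them were SF3A, SF3B or SNRP genes. The members with it included 5 of the 7 upregulated members that had an entry and 1 of the 4 downregulated ones. CACGTG stood in 7 members (10.6%), against 7.73% of all genes, and in 0 of 7 upregulated and 1 of 4 downregulated members. A word is a description of these windows and not a measured binding site.

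Splicing factor genes were expressed at high levels in both lines, and their summed levels overlapped. Expression is given in FPKM, fragments scaled to transcript length and to the size of the library, so that levels of different genes can be compared. The members had a median level of 30.6 FPKM, against 4.52 FPKM for all genes tested, and 66 of 76 reached 10 FPKM. HNRNPA1, an hnRNP that often represses splice sites, was the highest at 407 and 399 FPKM in TF1-BA and 437 and 427 FPKM in TF1-BAR cells. The FPKM of all 76 members summed to 3426 and 3360 for TF1-BA and to 3467 and 3332 for TF1-BAR cells, a ratio of 1.00. HNRNPA1 rested on 31444 to 37375 fragments per library and PRPF18, one of the lowest members tested, on 37 to 51.

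Of the members, 12 differed between the lines, 8 upward and 4 downward, all by less than 1 on the log2 scale. The difference in log2(FPKM + 0.5) was tested with limma for all 15519 genes whose mean reached 0.5 FPKM, and p-values were adjusted over all of them. Of the 76 members, 74 passed this filter. At an adjusted p under 0.05, 8 of 74 members were upregulated in TF1-BAR cells, while 16.3% of all genes tested were, and 4 were downregulated, while 10.5% of all genes were. In either direction 12 members (16.2%) were called, below the 26.9% of all genes tested, the 29.1% of protein-coding genes and the 36.5% of protein-coding genes with a mean of at least 10 FPKM. That order turned round with no filter on low values (6.58% of members against 4.69% of all genes), without TF1-BAR replicate 2 (9.46% against 6.62%) and with a trend on GC content, length and level removed (33.8% against 30.01%). None (0 of 74) also reached an absolute log2 fold change of 1, the study's threshold for differential expression, which 4.75% of all genes tested passed. The same count was 0 with limma voom on recovered fragments, and 25 of 74 members had an unadjusted p under 0.05, as did 6546 of all 15519 genes tested. The log2 fold changes ran from −0.70 to 0.72 with a median of 0.02 (0.07 over all genes tested), and 52 of 74 were under 0.25 in size. The libraries of the lines did not overlap for 49 members (66.2%), 25 higher and 24 lower in TF1-BAR cells, close to the 69.3% of all genes tested. With upper-quartile scaling 4 members were called higher and 11 lower, and after rescaling to TPM 12 higher and 3 lower, so that the split between directions depended on the scaling. Without TF1-BA replicate 1, or without TF1-BA replicate 2, 0 members were called by limma (8 and 10 with an unadjusted p under 0.05), when 144 and 42 of all genes tested were called. HNRNPF, SNRPA, PRPF6, RBM39 and SRSF5 were called under the other 15 alternatives tried. Without TF1-BAR replicate 1 the counts were 6 higher and 9 lower, and without TF1-BAR replicate 2 they were 5 and 2. SNRPB (limma adjusted p = 0.0631 without replicate 1 and 0.0678 without replicate 2) and PRPF38B (0.0812 and 0.0961) lost their calls without either TF1-BAR library, and without replicate 2 so did HNRNPLL (0.0518), HNRNPH3 (0.0749), SRSF8 (0.0780), HNRNPA2B1 (0.0814) and SF3B4 (0.114).

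**Figure D1:**
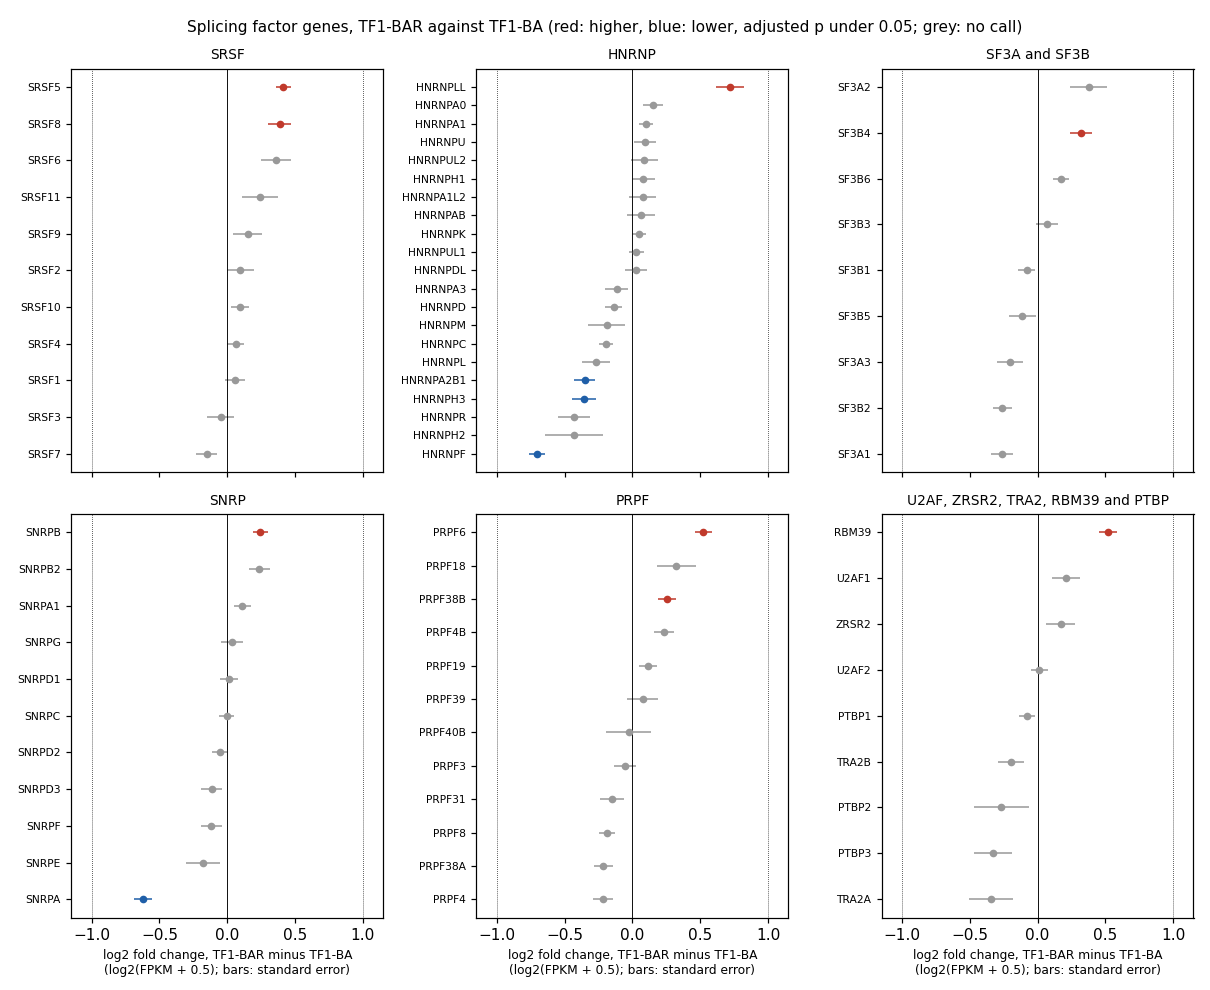
Log2 fold change (TF1-BAR minus TF1-BA, on log2(FPKM + 0.5), x axis) of the members tested that are named here, one row per gene and one panel per class. Points are limma estimates, bars their standard errors, red and blue mark members higher or lower at an adjusted p under 0.05, and dotted lines mark a log2 fold change of 1 in either direction, which no member reached (range −0.70 to 0.72).

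Among the SR proteins, SRSF5 and SRSF8 were upregulated in TF1-BAR cells. SRSF5, a shuttling SR protein, was at 59.99 and 60.93 FPKM in TF1-BA and 80.7 and 80.8 FPKM in TF1-BAR cells. Its libraries hardly varied within a line and were well apart between lines. The log2 fold change was 0.41 ± 0.05 (SE, n = 2 per line, limma adjusted p = 0.0107). SRSF8, a close relative of SRSF2 encoded on chromosome 11, was at 12.15 and 11.96 FPKM in TF1-BA and 15.03 and 16.83 FPKM in TF1-BAR cells (log2 fold change 0.39 ± 0.08, limma adjusted p = 0.0301, and 0.0511 with upper-quartile scaling). All other SRSF genes tested, 9 of 11, missed the threshold, so that 18.2% were called, against 26.9% of all genes tested. SRSF6 was at 50.8 and 51.9 FPKM in TF1-BA and at 73.3 and 59.4 FPKM in TF1-BAR cells, higher in both TF1-BAR libraries but far apart between them (log2 fold change 0.36, 95% confidence interval 0.07 to 0.64, limma adjusted p = 0.0705). About 9.94% of the 150-base words of its transcripts occur in transcripts of another annotated gene. Summed over the 12 SRSF genes, the level was 422 and 409 FPKM in TF1-BA and 493 and 447 FPKM in TF1-BAR cells, a ratio of 1.13 with no overlap. The log2 fold change was positive for 9 of 11 SRSF genes (8895 of all 15519 genes tested), 7 of 11 with upper-quartile scaling and 10 of 11 on the TPM scale. SRSF12 was listed at 0 in 3 libraries and at 0.0279 FPKM in TF1-BAR replicate 1 and was not tested.

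The hnRNP genes held the members that differed most in each direction. HNRNPLL, the regulator of CD45 splicing in lymphocytes, was at 9.22 and 9.93 FPKM in TF1-BA and 14.8 and 17.4 FPKM in TF1-BAR cells. This was 1.68 times the TF1-BA mean (9.58 ± 0.51 against 16.1 ± 1.9 FPKM, SD, n = 2 each), with a log2 fold change of 0.72 ± 0.10 (SE, limma adjusted p = 0.0123). Without TF1-BAR replicate 2, the higher of its resistant libraries, the log2 fold change was 0.60 and the adjusted p 0.0518. HNRNPF, which binds G-rich sequences near splice sites, was at 66.8 and 64.1 FPKM in TF1-BA and 40.2 and 39.8 FPKM in TF1-BAR cells. The TF1-BAR level was 0.611 of the TF1-BA level, the log2 fold change −0.70 ± 0.06 and the limma adjusted p 0.00531, the smallest of all members. HNRNPH3, of the same family, was at 34.98 and 34.66 FPKM against 29.04 and 25.28 FPKM (log2 fold change −0.36 ± 0.09, limma adjusted p = 0.0392, and 0.0590 on the TPM scale). HNRNPA2B1, an abundant hnRNP of RNA transport and splicing, was at 151 and 143 FPKM against 121 and 109 FPKM (−0.35 ± 0.07, limma adjusted p = 0.0295). These 4 genes were the members of the class that passed, of 21 tested (19.0%, against 26.9% of all genes), and the summed level of the class was 0.961 of that in TF1-BA cells. HNRNPUL2-BSCL2, a read-through gene that shares 58.2% of its 150-base words with HNRNPUL2, was at 0.0323 FPKM or less in every library and was not tested.

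Within sets of related hnRNPs the mixture of paralogues differed between the lines. HNRNPLL made up 22.8% and 27.2% of the summed FPKM of HNRNPL and HNRNPLL in TF1-BA cells and 39.4% and 41.1% in TF1-BAR cells, with no overlap. HNRNPL itself was at 31.2 and 26.6 FPKM against 22.79 and 25.01 FPKM and was not called (log2 fold change −0.27, 95% confidence interval −0.53 to −0.003, limma adjusted p = 0.116, with calls only under voom, 0.0333, and with the GC, length and level trend removed, 0.0472). In the HNRNPF/H set, HNRNPF made up 34.4% and 34.5% of the sum in TF1-BA and 24.1% and 27.2% in TF1-BAR cells, and HNRNPH1 held 36.8% and 37.7% in TF1-BA and 48.2% and 47.7% in TF1-BAR cells. HNRNPH1 was at 71.51 and 69.97 FPKM against 80.3 and 69.7 FPKM, overlapping between the lines (log2 fold change 0.08, limma adjusted p = 0.509), so that its larger share went with a smaller sum of the set (194 and 186 against 167 and 146 FPKM). HNRNPH2 was at 20.97 and 17.02 FPKM against 17.01 and 11.28 FPKM, with a wide spread within TF1-BAR cells (limma adjusted p = 0.192, with calls only under voom, 0.0421, and with the replicate number as a block, 0.0454). HNRNPA2B1 held 27.1% and 26.3% of the sum with HNRNPA1 in TF1-BA cells and 21.7% and 20.3% in TF1-BAR cells. HNRNPA1 was not called (log2 fold change 0.10, 95% confidence interval −0.03 to 0.23, limma adjusted p = 0.199). These shares are descriptions and were not tested.

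**Figure D2:**
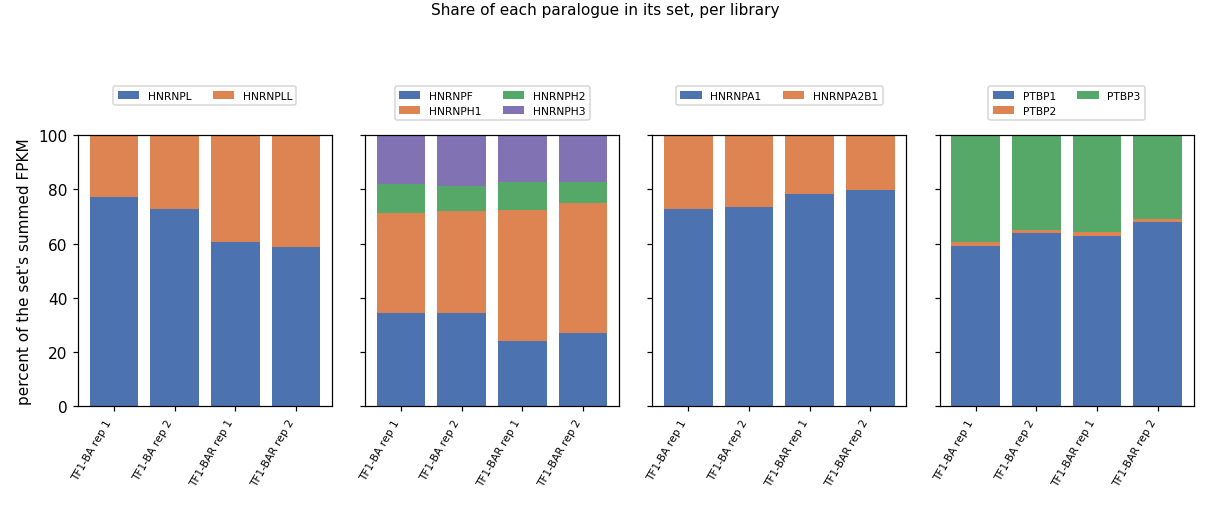
Share of each paralogue in the summed FPKM of its set (stacked bars, percent, y axis) in the 4 libraries (x axis) for HNRNPL/HNRNPLL, HNRNPF/HNRNPH1/HNRNPH2/HNRNPH3, HNRNPA1/HNRNPA2B1 and PTBP1/PTBP2/PTBP3. HNRNPLL takes 22.8% and 27.2% of its set in TF1-BA and 39.4% and 41.1% in TF1-BAR cells, and HNRNPF 34.4% and 34.5% against 24.1% and 27.2%.

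Of the polypyrimidine tract-binding proteins, which repress exons next to pyrimidine-rich tracts, 0 of 3 were called by limma, where 26.9% of all genes tested were, and none had an unadjusted p under 0.05. PTBP3 was called with voom (adjusted p = 0.0270) and with the replicate block (0.0335). PTBP1 was at 71.5 and 73.5 FPKM in TF1-BA and 69.2 and 68.2 FPKM in TF1-BAR cells (log2 fold change −0.08, 95% confidence interval −0.22 to 0.07). PTBP3, its haematopoietic relative, was at 47.9 and 40.5 against 39.2 and 31.2 FPKM (−0.33, −0.69 to 0.03). PTBP2, the neuronal form, was near 1 FPKM (1.84 and 1.33 against 1.45 and 1.02) and made up at most 1.52% of the set. The SR-like proteins TRA2A (16.36 and 15.02 against 14.5 and 10.4 FPKM) and TRA2B (26.98 and 26.94 against 25.6 and 21.6 FPKM) were lower in both TF1-BAR libraries and not called either (limma adjusted p = 0.180 and 0.193). For both the distance between the TF1-BAR replicates was larger than that between the TF1-BA replicates.

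RBM39, an SR-related protein that works with U2AF at the 3′ splice site, was upregulated in TF1-BAR cells. It was at 32.8 and 33.1 FPKM in TF1-BA and 49.3 and 45.8 FPKM in TF1-BAR cells, 1.44 times as high. The log2 fold change was 0.52 ± 0.07 (SE, n = 2 per line, limma adjusted p = 0.009995). It was the only one of the 9 single genes that passed (11.1%, against 26.9% of all genes tested).

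Of the components of the U2 snRNP that recognise the branch point, SF3A and SF3B, 1 of 9 was called (11.1%, against 26.9% of all genes tested). The libraries of the lines did not overlap for 7 of 9 (77.8%, against 69.3% of all genes tested), and 5 of 9 had an unadjusted p under 0.05, as did 6546 of all 15519 genes. SF3B1, the subunit mutated in myeloid neoplasms, was at 50.9 and 53.2 FPKM in TF1-BA and 50.4 and 48.1 FPKM in TF1-BAR cells. Its log2 fold change of −0.08 had a 95% confidence interval of −0.24 to 0.08 (limma adjusted p = 0.381). SF3B4 was the one called member of 9, at 24.3 and 22.7 FPKM in TF1-BA and 28.06 and 30.95 FPKM in TF1-BAR cells (log2 fold change 0.32 ± 0.08, limma adjusted p = 0.0429). With upper-quartile scaling its adjusted p was 0.0875, and with the replicate block 0.0628. SF3A2 was at 20.6 and 23.8 FPKM against 25.9 and 32.3 FPKM, with the largest log2 fold change of the class (0.38, limma adjusted p = 0.0979), and SF3A1 (−0.26, 0.0745) and SF3B2 (−0.26, 0.0505) were lower in both TF1-BAR libraries without passing. Under the 17 alternatives tried, SF3B2 was called in 6, SF3A1 in 4 and SF3A2 in 3. SF3B5, a small subunit and the highest of the class, was at 106 and 119 FPKM against 96.9 and 111 FPKM, with more distance between replicates than between lines. The summed level of the class was 406 and 423 FPKM in TF1-BA and 413 and 420 FPKM in TF1-BAR cells, a ratio of 1.00.

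The other splicing factors with recurrent mutations in myeloid neoplasms were not called either. SRSF2 was at 36.6 and 35.8 FPKM in TF1-BA and 42.2 and 35.6 FPKM in TF1-BAR cells, and the lines overlapped (log2 fold change 0.10, 95% confidence interval −0.15 to 0.35). ZRSR2, which recognises the 3′ splice site of minor introns, was at 4.51 and 4.67 FPKM against 4.77 and 5.72 FPKM on 150 to 191 fragments per library (0.17, −0.11 to 0.45). PRPF8, the central protein of U5, was at 36.02 and 35.27 FPKM against 31.2 and 31.3 FPKM, tight within each line and lower in TF1-BAR cells by 0.19 on the log2 scale, yet above the threshold (limma adjusted p = 0.0744). It was called with upper-quartile scaling (0.0293), with voom (0.0470) and with the GC, length and level trend removed (0.0216). U2AF1, the small U2AF subunit that reads the AG of the 3′ splice site, was at 1.89 and 1.97 FPKM against 2.22 and 2.39 FPKM (0.21, −0.06 to 0.48). The intervals of SRSF2, ZRSR2 and U2AF1 exclude a change by 1 on the log2 scale and include 0.

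The U2AF1 level is uncertain because GRCh38 holds a second copy of the gene. U2AF1 spans 43092956 to 43107587 on chromosome 21 and the copy, U2AF1L5, 6484623 to 6499261 on the same chromosome. Of the 150-base words across the whole span of U2AF1, introns included, 82.7% also occur in the span of the copy. Of the words pooled over all its annotated transcripts, 6.46% occur in annotated transcripts of other genes. That share depends on which transcripts are annotated and does not measure how much of the U2AF1 level is ambiguous. A fragment from a shared stretch cannot be assigned to either copy by its sequence. U2AF1L5 was listed at 0.643 and 0.541 FPKM in TF1-BA and 0.559 and 0.632 FPKM in TF1-BAR cells. The copies together reached 2.51 to 3.02 FPKM, far under the 37.02 to 39.59 FPKM of the partner subunit U2AF2. The authors ran their alignment and quantification with default parameters, and how many fragments with several places entered these values was not measured here. HNRNPA1L2, all of whose transcript words occur elsewhere, has the same limit.

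Among the snRNP proteins, SNRPA was downregulated and SNRPB upregulated. SNRPA, the A protein of the U1 snRNP, was at 46.13 and 46.04 FPKM in TF1-BA and 30.7 and 28.8 FPKM in TF1-BAR cells. The level fell to 0.646 of the TF1-BA mean (log2 fold change −0.62 ± 0.06, limma adjusted p = 0.00705). SNRPB, which encodes the Sm proteins B and B′ of the ring around the small nuclear RNAs, was at 84.2 and 82.3 FPKM against 100.03 and 97.06 FPKM (0.24 ± 0.06, limma adjusted p = 0.0351). With upper-quartile scaling its log2 fold change was 0.15 and its adjusted p 0.114. SNRPB took 23.2% and 23.9% of the summed FPKM of the 7 Sm genes in TF1-BA cells and 27.8% and 27.9% in TF1-BAR cells, while the other 6 Sm genes were not called. SNRPD2, the Sm gene at the highest level, was at 111 and 106 FPKM against 102 and 106 FPKM (limma adjusted p = 0.498). SNRPB2, the U2B″ protein of the U2 snRNP, was at 20.9 and 22.2 FPKM against 26.6 and 24.4 FPKM (0.24, 95% confidence interval 0.04 to 0.43, limma adjusted p = 0.0799).

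Of the PRPF genes, PRPF6 and PRPF38B were upregulated. PRPF6, which bridges the U4/U6 and U5 particles in the tri-snRNP, was at 51.04 and 53.64 FPKM in TF1-BA and 77.1 and 73.6 FPKM in TF1-BAR cells. This was 1.44 times as high (52.3 ± 1.8 against 75.3 ± 2.5 FPKM, SD, n = 2 each), with a log2 fold change of 0.52 ± 0.06 (limma adjusted p = 0.00908). PRPF38B was at 15.7 and 15.2 FPKM against 18.5 and 18.4 FPKM (0.25 ± 0.07, limma adjusted p = 0.0465), and with upper-quartile scaling at 0.16 with an adjusted p of 0.129. With the replicate block the adjusted p of PRPF38B was 0.0602. PRPF19, the ubiquitin ligase of the PRP19 complex and the highest of the class, was at 81.99 and 81.94 FPKM against 84.7 and 92.9 FPKM (limma adjusted p = 0.266). The class summed to 315 and 312 FPKM in TF1-BA and 340 and 333 FPKM in TF1-BAR cells.

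**Figure D3:**
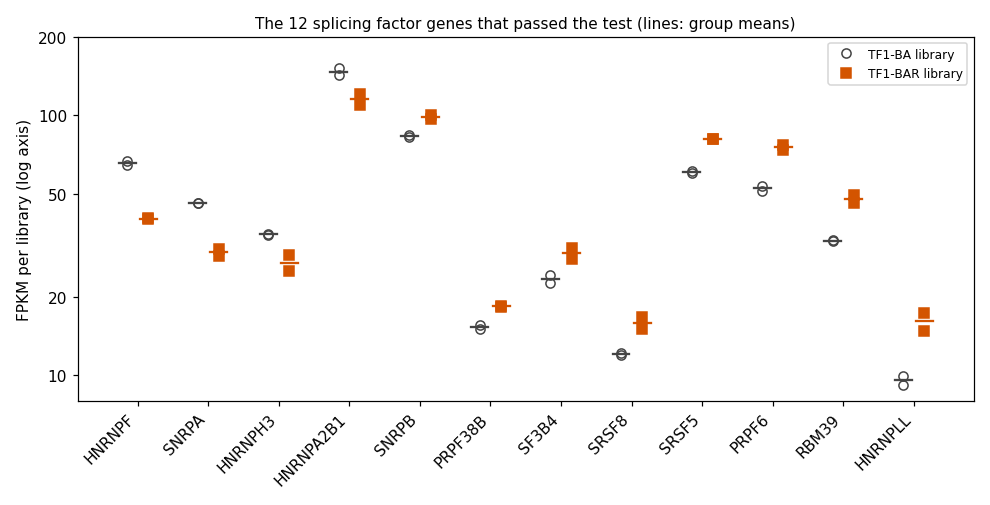
FPKM in each library (log y axis) of the 12 members with an adjusted p under 0.05, ordered by log2 fold change. Open circles are TF1-BA libraries, filled squares TF1-BAR libraries and lines the group means. The libraries of the lines do not overlap for any of these genes, from HNRNPF (66.8 and 64.1 against 40.2 and 39.8 FPKM) to HNRNPLL (9.22 and 9.93 against 14.8 and 17.4 FPKM).

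Of the 12 called members, 5 lay on chromosomes 10 and 20, whose genes differed together between the lines. On chromosome 20, all 5 members (PRPF6, RBM39, SNRPB, SNRPB2 and SRSF6) had a positive log2 fold change under every scaling tried, and 3 were called. The 440 genes tested on that chromosome had a median log2 fold change of 0.39, and 220 of them were called. Genes within 5 Mb of these members had medians of 0.35 (PRPF6), 0.37 (RBM39), 0.51 (SNRPB), 0.35 (SNRPB2) and 0.39 (SRSF6). SNRPB, SNRPB2 and, by little, SRSF6 (0.36) lay under their neighbours and PRPF6 and RBM39 above them. On chromosome 10, where the 593 genes tested had a median of −0.35 and 48.9% were called, HNRNPF and HNRNPH3 were downregulated. The medians of their neighbours were −0.27 and −0.47. PRPF18, a second-step factor at 1.10 and 1.28 FPKM against 1.735 and 1.501 FPKM, differed from its neighbours (median −0.22) with a log2 fold change of 0.32 on 37 to 51 fragments per library and was not called (limma adjusted p = 0.150). Outside these chromosomes, 7 of 66 members were called (10.6%), 5 higher and 2 lower, while 25.2% of 14486 genes were. Those 7 were HNRNPLL, SRSF5, SRSF8, SF3B4, PRPF38B, SNRPA and HNRNPA2B1. The number of copies of these chromosomes in either line was not measured here.

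**Figure D4:**
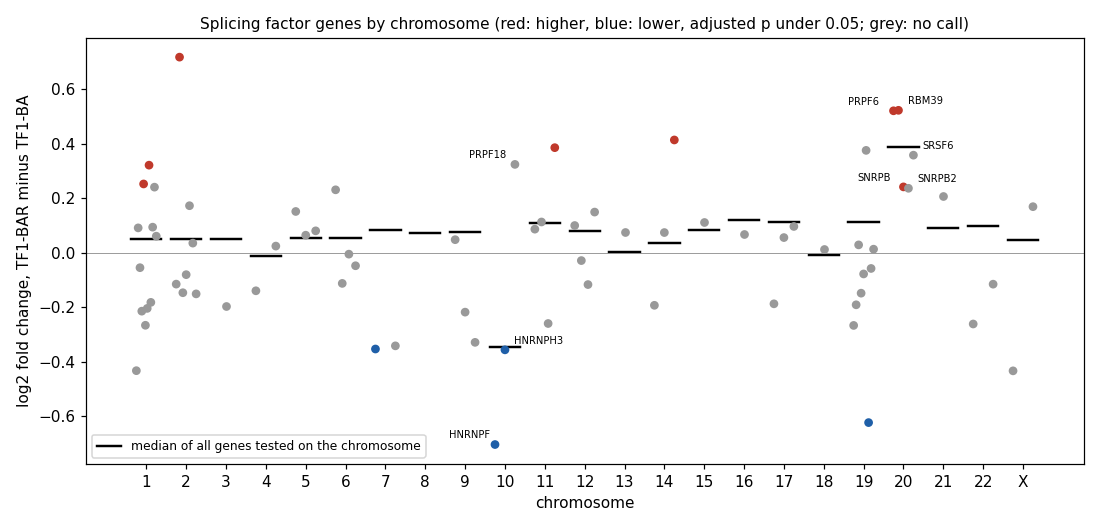
Log2 fold change (TF1-BAR minus TF1-BA, y axis) of the 74 members tested by chromosome (x axis), with the median of all genes tested on each chromosome as a black bar. Red and blue mark members higher or lower at an adjusted p under 0.05 and grey no call. The chromosome 10 bar lies at −0.35 and that of chromosome 20 at 0.39, and the members on chromosome 20 are all above 0.

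Other genes of the splicing machinery, counted in 9 lists by function, moved in both directions as well. The lists had 139 rows of values, of which 134 were tested, 19 were upregulated and 9 downregulated (20.9%, against 26.9% of all genes tested), and their median log2 fold change was 0.04. With upper-quartile scaling 11 were higher and 19 lower, and with no filter on low values 7 and 2 of 139, when 4.69% of all genes were called. The list of 5′ splice site and branch point factors held 4 upregulated and 1 downregulated of 15 (33.3%, against 26.9% of all genes tested and 36.5% of protein-coding genes with a mean of at least 10 FPKM). LUC7L (6.53 and 6.93 against 10.7 and 11.6 FPKM, log2 fold change 0.69) and LUC7L3 (40.9 and 39.7 against 61.3 and 58.7 FPKM, 0.57), U1-associated proteins of 5′ splice site choice, were upregulated. SMNDC1 was downregulated (15.8 and 14.3 against 11.1 and 8.54 FPKM, −0.60) and lies on chromosome 10. Among the 24 other particle proteins 1 was called in each direction (8.33%, against 26.9% of all genes tested). SNRNP70, the U1-70K protein, was at 55.9 and 62.9 FPKM in TF1-BA and 97.4 and 111 FPKM in TF1-BAR cells (0.80 ± 0.10, limma adjusted p = 0.00900), opposite in direction to its U1 partner SNRPA, while the third U1 protein SNRPC was at 73.3 to 75.3 FPKM in all libraries. LSM8 of the U6 ring was lower by 0.26 on the log2 scale (limma adjusted p = 0.0498).

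In the exon junction complex and SR-related list, 3 of 12 were upregulated and 1 downregulated (33.3%, against the same 26.9% and 36.5%). EIF4A3, the helicase that clamps the exon junction complex on RNA, was at 17.3 and 16.9 FPKM in TF1-BA and 10.9 and 10.9 FPKM in TF1-BAR cells (−0.63 ± 0.07, limma adjusted p = 0.00714). SRRM1 (0.39) and CASC3 (0.34) were upregulated. Of the 22 PRP19 complex and catalytic step genes, 13.6% were called, against the same 26.9%. CTNNBL1 (0.57, on chromosome 20) and RBM22 (0.35) were upregulated and CWC22 (−0.47), the partner that brings EIF4A3 to the spliceosome, downregulated. Of 10 SR protein kinases and import factors 2 were called, of 9 minor spliceosome genes 2 (22.2%) and of 15 genes of Sm core assembly 1 (6.67%), all under that share. The kinase CLK1 was upregulated (18.5 and 19.7 against 23.7 and 28.3 FPKM, 0.43) and SRPK3 downregulated (−0.44, at 2.44 FPKM or less). Of the minor spliceosome genes RNPC3 was upregulated (0.49) and SNRNP48 downregulated (−0.45), and of the Sm core assembly genes only SNUPN, the import adaptor, was called (−0.34), with the near-identical SMN1 and SMN2 uncertain. Each of these calls had a limma adjusted p under 0.05.

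The list of other tissue-regulated splicing factors held 7 upregulated and 2 downregulated of 24 tested (37.5%, against the same 26.9% and 36.5%). RBM38 (0.57) lies on chromosome 20. MATR3 (0.50) is split over a pair of gene identifiers, of which only one reached the filter, and its value is uncertain. MBNL2, of the muscleblind family, was at 16.9 and 18.2 FPKM against 12.8 and 12.2 FPKM (−0.47), and CELF2 (−0.34) lies on chromosome 10. Of the adaptors that read trimethylated lysine 36 of histone H3, 0 of 3 were called by limma, against the same 26.9%, and 0 had an unadjusted p under 0.05. MORF4L1, which recruits PTBP1, was at 49.2 and 48.7 FPKM in TF1-BA and 46.7 and 40.3 FPKM in TF1-BAR cells (log2 fold change −0.17, 95% confidence interval −0.40 to 0.05). PSIP1 was at 33.23 and 34.04 FPKM against 30.97 and 22.33 FPKM (−0.35, −0.76 to 0.06), and ZMYND11 at 14.6 and 13.9 against 15.2 and 13.5 FPKM (0.01, −0.21 to 0.23).

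The members also differed between the TF1-BAR replicates. In TF1-BAR cells, 48 of 74 members (64.9%) were lower in replicate 2 than in replicate 1, with a median log2 difference of −0.07, whereas 46.7% of protein-coding genes with a mean of at least 10 FPKM were lower, with a median of 0.02. In TF1-BA cells 45 of 74 members (60.8%) were lower in replicate 2, against 55.7% of those genes. SRSF6, HNRNPH2, PTBP3 and TRA2A had wide gaps between the TF1-BAR replicates. They missed the threshold but passed it with limma voom on recovered fragments (adjusted p = 0.00931, 0.0421, 0.0270 and 0.0476). Other members with wide gaps did not, such as PTBP2 and HNRNPM (log2 differences of −0.36 and −0.33), which were called under 0 of the 17 alternatives.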

How the data were processed

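Total RNA libraries of TF1-BA and TF1-BAR cells (2 each) were sequenced by the authors as paired-end reads, mapped to GRCh38 with TopHat2 (2.0.13) and quantified with Cufflinks and Cuffdiff (2.2.0), per the labels. The values they deposited are FPKM per gene and library. The annotation release is not given in the sources used here. The authors tested differential expression with DESeq2. Strand-specific counting is not described, so that a gene and an antisense partner cannot be told apart.

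Fragments were recovered from the deposited FPKM by a search for library sizes and exonic lengths that turn the values of a gene into whole numbers (within 0.001 fragments) in all libraries. All 30853 genes above 0 came out whole, 14220 at the exon length of GENCODE 44 and 16633 at a fitted length, and 98.8% to 98.9% of fragments fell in listed genes. These numbers describe counting error only.

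The test used R 4.3.3 with limma 3.58.1 (two-sided, eBayes with trend) on log2(FPKM + 0.5) for genes with a mean of at least 0.5 FPKM, with Benjamini-Hochberg adjustment. An exact permutation test of 2 against 2 libraries cannot go below p = 0.333 and was not used. The replicates differed by more than sampling noise (chi-square per degree of freedom 4.58 and 7.79). The script was tested on simulated data with the same spread for every gene and with changes larger than those of the members. That test therefore does not cover changes of the members' size. The members and lists were chosen with earlier results of these data known. Named were members passing both thresholds, in each class up to 3 called members per direction, the highest member, factors mutated in myeloid neoplasms, members on chromosomes 10 and 20, paralogue sets and members under the filter, and of the other lists up to 2 called genes per direction. Values of U2AF2, SF3A1, SF3A2, SF3B2, HNRNPA1L2, HNRNPDL, SNRPC, U2AF1L5 and the H3K36 adaptors were added after they were seen. RBFOX1, RBM24 and SRRM4 were not analysed here, and some genes counted in the totals are not reported by name. Sequence shared between genes was counted in 150-base words of GENCODE 44 transcripts. Alternatives were other pseudocounts, filters, scalings, moderation, protein-coding genes only, a replicate block and leaving out each library, and 2 more chosen after seeing the data, voom on recovered fragments and removal of a trend on GC content, length and level.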

Additional observations from a re-analysis of the deposited data

How the results depend on the processing

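No value changed sign in a call, and the 0 of 74 members past both thresholds stayed at 0 under every alternative. With 8 members higher and 4 lower as reported, the counts were 3 and 2 with no filter on low values, 4 and 11 with upper-quartile scaling, 12 and 3 on the TPM scale, 4 and 2 without the trend of the spread, 12 and 8 over protein-coding genes only (27.03% of members, 41.7% of all genes), 11 and 14 with voom (33.8% and 37.6%), and 16 and 9 after removing the trend on GC content, length and level (33.8% and 30.01%). Of named members without a call as reported, SF3B2 was called under 6 of the 17 alternatives, SRSF6 under 5 and SF3A1 under 4. PRPF8, SF3A2 and SNRPB2 were called under 3, HNRNPH2, HNRNPL, PTBP3 and TRA2A under 2, and HNRNPA1, HNRNPH1 and TRA2B under 1. Leaving out each library in turn gave 0 to 6 higher and 0 to 9 lower. With the replicate number as a block, 7 members were higher and 7 lower, but over all genes tested same-numbered libraries did not deviate together (correlation 0.0646), and nothing in the labels pairs them. Many members, such as PTBP2, PTBP3, HNRNPH2, HNRNPM and SNRPE, were nevertheless lower in replicate 2 of both lines, and others, such as SF3A2 and SRSF9, were higher in both. The correlation of these deviations over the members alone was not measured. The median log2 fold change of members was −0.071 with upper-quartile scaling, 0.088 on the TPM scale and −0.072 with each chromosome's median subtracted. Of the other spliceosome genes, 19 higher and 9 lower as reported, 7 and 2 were called with no filter, 11 and 19 with upper-quartile scaling, 22 and 5 on the TPM scale, 10 and 3 without the trend, 22 and 17 over protein-coding genes, 24 and 21 with voom, and 17 and 15 with the GC trend removed. Leaving out libraries gave 0 to 15 and 0 to 11. The cause of these differences was not tested.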

Other observations

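The table also holds 77 pseudogene rows whose names match the families. Of these, 19 were tested, 2 were higher and 1 lower in TF1-BAR cells by limma (adjusted p under 0.05, which 26.9% of all genes tested passed), and 8 were listed at 0 in every library. HNRNPDLP1 on the X chromosome was at 1.61 and 0.588 FPKM in TF1-BA and 3.58 and 2.94 FPKM in TF1-BAR cells (log2 fold change 1.30 ± 0.33, limma adjusted p = 0.0446), while HNRNPDL, whose transcripts share no 150-base word with those of another gene, was at 51.9 and 47.8 against 53.3 and 48.2 FPKM. PRPF38AP2 on chromosome 10 was at 2.87 and 2.74 against 3.80 and 4.17 FPKM, against the direction of most genes of that chromosome. SNRPFP2 was at 1.10 and 1.29 against 0.253 and 0.496 FPKM.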
